A study of Homo sapiens with 2 samples.

Results

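The genes of the factors that start and extend protein synthesis on the cytosolic ribosome were followed in human embryonic stem cells and in neural precursor cells made from them. They were chosen by name alone: the symbol had to begin with EIF (eukaryotic initiation factor) or EEF (eukaryotic elongation factor), then a digit, then only capital letters or digits. The rule found 66 genes among 24462 gene symbols. It also takes in regulators named after a factor, such as kinases and binding proteins, and a few related copies and pseudogenes.

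RNA sequencing gave 1 library of neural precursor cells (NPC) and 1 library of undifferentiated human embryonic stem cells (hESC). Both came from H9, an established pluripotent human line. The NPC had been differentiated on a feeder layer of MS5, a mouse stromal line, and the labels name no drug, transgene or other agent. The design text sets the mRNA profile of the NPC against that of the hESC, and with 1 library each there is no replicate check, no test and no p-value. All differences below are between these 2 libraries.

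Initiation factors bring the small ribosomal subunit, the initiator tRNA and the mRNA together at the start codon. The eIF4F complex binds the mRNA cap, eIF2 carries the initiator tRNA, and eIF3 holds the assembly together. Elongation factors then deliver each aminoacyl-tRNA (eEF1A), move the ribosome along (eEF2) and ease difficult peptide bonds (eIF5A). The cell controls the rate at known points: 4E-binding proteins block the cap-binding protein, and a family of kinases inactivates eIF2 under stress. Embryonic stem cells are known for a low overall rate of protein synthesis that rises on differentiation, and neural tissue is known for its own isoforms of some of these factors.

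The NPC library held 24065750 counted reads and the hESC library 19686728. CPM are counts scaled to the effective library size, the library total corrected with TMM factors (trimmed mean of M values). A gene at 5 CPM rested on 136 NPC reads or 86.9 hESC reads, and such a gene in either library is called measured. Labels were checked with marker genes. The 8 pluripotency markers summed to 33.5 CPM in the NPC and 7477 CPM in the hESC library, and the 8 neural progenitor markers to 4304 CPM and 849 CPM. Each of these markers had more CPM in the library that its label names, but the progenitor markers did so unequally. VIM alone had 3291 CPM in the NPC and 237 CPM in the hESC library. NES was nearly equal at 366 CPM and 355 CPM, and SOX2 had 283 CPM and 213 CPM. SOX1 had 50.6 CPM and 0.46 CPM, and PAX6 83.4 CPM and 1.04 CPM. Neuron markers (7 genes, 5 with more CPM in the NPC library) summed to 1597 CPM in the NPC and 281 CPM in the hESC library. Stroma and fibroblast markers (8 genes, 6 with more CPM in the NPC library) summed to 990 CPM and 659 CPM. None of these markers was at 0 reads in either library. The part of neurons, stroma and mouse feeder cells in the results below was not tested, and the number of reads from the feeder cannot be read from human counts. In a bulk sample, fewer cells of a type and less RNA per cell cannot be told apart.

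Translation factor genes stood mostly below their hESC level in the NPC. Among the 61 measured members, 28 were lower by at least 2-fold at the bound of their 95% counting interval nearest to no change, and 0 were higher. That is 45.9% lower, against 19.8% of all 13535 measured genes called lower and 19.6% called higher by the same rule. The other 33 did not pass the size rule in either direction. The median log2 ratio, NPC over hESC, was -1.02 for the members, a level 2.03-fold lower, and -0.09 for all measured genes, and 57 of the 61 members had a ratio below 0, of which 6 change sign with another scaling given below. At a near bound of 1.5-fold, 43 members were lower, against 30.6% of all measured genes, and 2 were higher (EEF1A2 and EIF4G3), against 27.7%.

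Together the members took 2.40% of the kept reads in the NPC library and 3.35% in the hESC library. EEF1A1 alone gave 29.0% of these member reads in the NPC and 22.9% in the hESC library. Abundant genes in general were lower in the NPC library: among 2210 genes with a mean of at least 100 CPM, 29.0% were called lower and 10.7% higher, with a median log2 ratio of -0.55. Of the 38 members at that abundance 21 were lower (55.3%) and 0 higher, with a median of -1.20. Scaling moves these values. With the library total in place of TMM every log2 ratio rises by 0.36, and then 17 members were lower, 2 were higher (EEF1A2 and EIF4G3) and the median was -0.67, against 0.31 for all measured genes. By the same rule 13.2% of all measured genes were then lower and 27.0% higher. EEF1G, EIF1, EIF2AK1, EIF2AK3, EIF3J and EIF5 then had a ratio above 0, so no direction is given for them below.

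**Figure D1:**
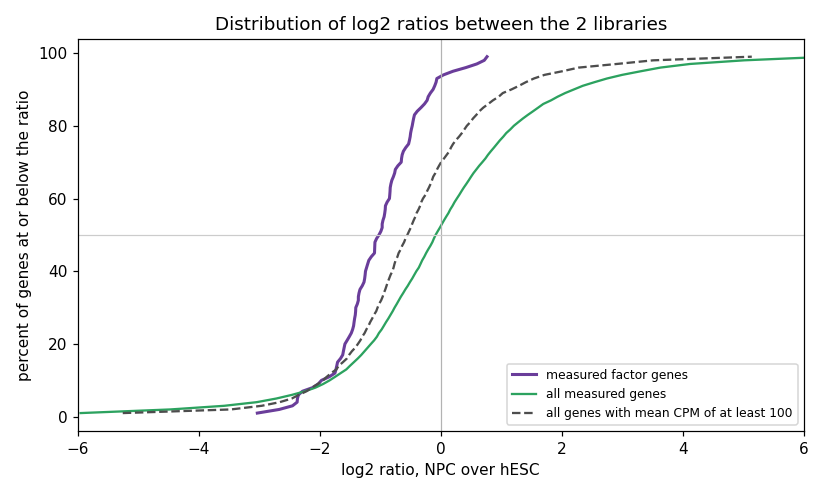
Percent of genes (vertical axis) at or below each log2 ratio, NPC over hESC (horizontal axis), for the 61 measured translation factor genes, all 13535 measured genes and the 2210 genes with a mean of at least 100 CPM. The curve of the translation factors crosses the middle at -1.02, against -0.09 for all measured genes, and is steeper, with few genes above 0.

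Of the 66 members, 60 reached 5 CPM in both libraries. EIF5AL1 reached it in the hESC library alone and so could not have been called higher. Below the filter in both were EIF4E1B (0 NPC reads and 7 hESC reads), EIF4EBP3 (33 and 16), EEF1DP3 (2 and 2) and EIF3IP1 (0 and 1), the last pair being pseudogenes by name. EIF1AY, on the Y chromosome, is counted among the members and its level is not given. EIF1AD, a nuclear protein with an eIF1A-like domain that is no translation factor, had 14.7 CPM in the NPC and 25.7 CPM in the hESC library.

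Many genes of the translation machinery start with a terminal oligopyrimidine (TOP) tract, a C at the first transcribed base followed by a run of pyrimidines, through which mTOR and the protein LARP1 control their translation. RefSeq promoter windows (GRCh38.p14, from 250 bases before to 50 after each annotated start) were found for 51 members. Of these genes 12 had at least 1 start with a C followed by at least 4 pyrimidines (23.5%), against 6.02% of the 16153 genes of the files with a window. The count is a description of annotated starts on the coding strand, not of starts used in these cells. The sequences below run from 40 bases before to 10 bases after the start, with the pyrimidine tract in capitals. They set genes that missed the size rule (EEF1A1, EEF2, EIF4A2 and EIF4B) beside genes that passed it (EEF1B2, EIF3M and EIF3K).
EEF1A1 (chr6:73521023-73521072, minus strand): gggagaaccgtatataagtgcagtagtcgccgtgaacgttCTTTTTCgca
EEF2 (chr19:3985454-3985503, minus strand): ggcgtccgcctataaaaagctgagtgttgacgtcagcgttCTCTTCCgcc
EEF1B2 (chr2:206159855-206159904, plus strand): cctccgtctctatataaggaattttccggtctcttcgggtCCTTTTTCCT
EIF4A2 (chr3:186783537-186783586, plus strand): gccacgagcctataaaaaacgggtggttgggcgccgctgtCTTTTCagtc
EIF4B (chr12:53006416-53006465, plus strand): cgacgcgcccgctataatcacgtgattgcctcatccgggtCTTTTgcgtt
EIF3M (chr11:32583791-32583840, plus strand): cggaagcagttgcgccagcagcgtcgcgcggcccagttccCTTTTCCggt
EIF3K (chr19:38619148-38619197, plus strand): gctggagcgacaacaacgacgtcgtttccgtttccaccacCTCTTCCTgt

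The tract of EEF1B2 goes on past the printed window, to 16 pyrimidines. The 12 members with a tract, all measured, had a median log2 ratio of -1.0, from -1.52 (EIF3M) to -0.50 (EEF1A1), and 5 of them were lower. The 37 measured members with a window and no tract had a median of -1.02, from -2.74 to 0.76, and 17 were lower. The medians thus lay close together, and the members with a tract covered a narrower range. The 82 measured cytosolic ribosomal protein genes, the classical TOP genes, had a median of -0.94, and 28 of them were lower. By the same rule 19.8% of all measured genes were lower, and 29.0% of genes with a mean of at least 100 CPM. At that abundance 27 of 80 ribosomal protein genes were lower.

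The E-box CACGTG, a palindrome and so the same on both strands, was found in the windows of 13 of the 51 members (25.5%), against 10.5% of all genes with a window. It is shown for EIF4 genes, in which it recurs, in capitals with 20 bases on each side.
EIF4E (chr4:98929180-98929225, minus strand): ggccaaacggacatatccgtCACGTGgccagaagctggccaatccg
EIF4G1 (chr3:184314519-184314564, plus strand): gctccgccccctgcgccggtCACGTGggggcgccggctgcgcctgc
EIF4A3 (chr17:80147224-80147269, minus strand): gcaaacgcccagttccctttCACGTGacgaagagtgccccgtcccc
EIF4H (chr7:74174137-74174182, plus strand): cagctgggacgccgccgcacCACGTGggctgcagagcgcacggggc

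These copies lie 72, 67, 121 and 199 bases before the start, and EIF4E and EIF4G1 each hold a further copy, 225 and 144 bases before it. The 12 measured members with the motif had a median log2 ratio of -0.94 and 5 were lower. The 37 without it had a median of -1.09 and 17 were lower, against 19.8% of all measured genes. The motif TGATGNAA on either strand, part of the element that ATF4 and C/EBP proteins bind together, was in the windows of 1 member (EIF4E3) of 51, or 1.96%, against 3.71% of all genes. The EIF4B sequence printed for its tract also holds a CACGTG, in lower case, that does not overlap the tract. A match is a match of letters and no evidence of binding.

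**Figure D2:**
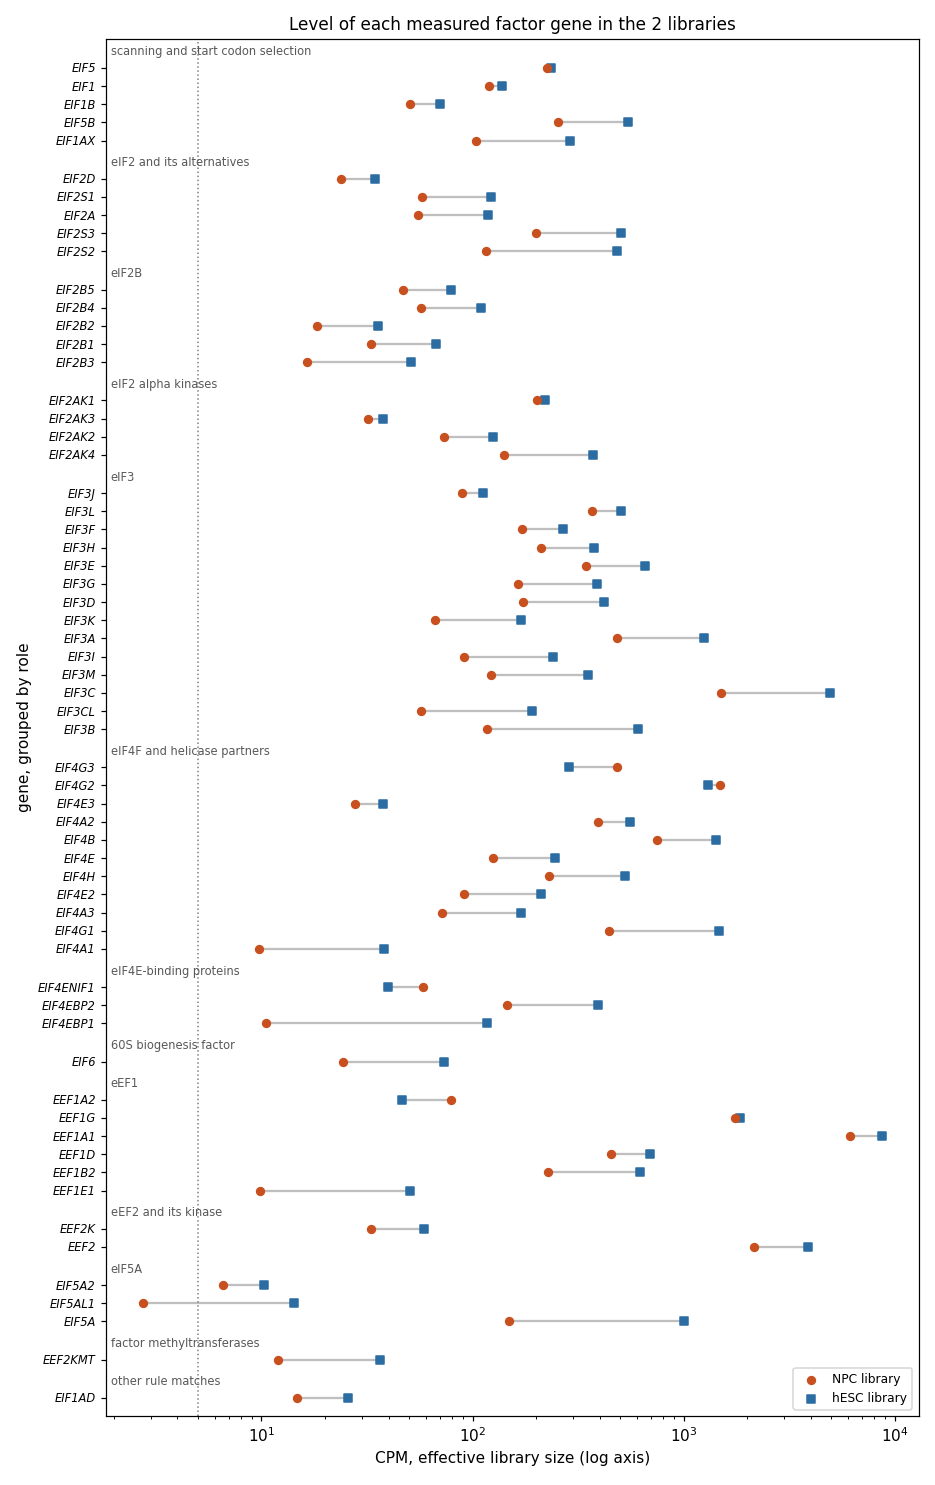
CPM of the 61 measured members on a log axis, grouped by role, in the NPC library (circles) and in the hESC library (squares). The dotted line is the filter of 5 CPM. The NPC point lies left of the hESC point for all genes but EIF4G3, EIF4G2, EIF4ENIF1 and EEF1A2, and with the library total 6 more genes change side.

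Of the 5 measured genes of scanning and start codon selection, 2 were lower, against 19.8% of all measured genes. With the library total 1 was lower, against 13.2%. EIF1AX, the X-linked gene of eIF1A, which opens the small subunit for scanning, had 104 CPM in the NPC and 289 CPM in the hESC library and was 2.77-fold lower (95% counting interval 2.64 to 2.90). No strand setting is stated, so some of its reads may belong to the antisense row EIF1AX-AS1, which had 234 reads in the NPC and 716 in the hESC library. EIF5B, the GTPase that joins the ribosomal subunits, had 255 CPM in the NPC and 542 CPM in the hESC library and was 2.13-fold lower (2.06 to 2.19), a call lost with the library total. The other measured genes of the group stayed nearer to no change. EIF1, which guards start codon choice, had 120 CPM in the NPC and 138 CPM in the hESC library, and its relative EIF1B 50.6 CPM and 70.2 CPM. EIF5, the GTPase-activating protein of eIF2, was nearly equal at 225 CPM in the NPC and 234 CPM in the hESC library.

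Of the 5 genes of eIF2 and its alternatives, 2 were lower, against 19.8% of all measured genes, and the subunits differed unequally. With the library total EIF2S2 alone was lower, against 13.2% of all measured genes. EIF2S2, the beta subunit, had 116 CPM in the NPC and 483 CPM in the hESC library and was 4.18-fold lower (4.01 to 4.36). EIF2S3, the gamma subunit that binds the initiator tRNA, had 199 CPM and 503 CPM and was 2.53-fold lower (2.44 to 2.61). EIF2S1, the alpha subunit that the stress kinases phosphorylate, had 57.4 CPM in the NPC and 122 CPM in the hESC library. Its ratio of 2.13 (2.0 to 2.28) missed the size rule narrowly. Within the 3 subunits EIF2S2 took 31.1% of the reads in the NPC and 43.6% in the hESC library, a share that needs no scaling between libraries. EIF2A and EIF2D, which can deliver initiator tRNA without eIF2, had 55.1 CPM and 23.8 CPM in the NPC library, against 118 CPM and 34.5 CPM in the hESC library. Neither passed the rule, EIF2A by a narrow margin with a ratio of 2.14.

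eIF2B exchanges the nucleotide on eIF2 and is the target of the stress pathway. Of its 5 subunit genes only EIF2B3, which encodes the gamma subunit, was called lower, a share close to the 19.8% of all measured genes. It had 16.5 CPM in the NPC and 50.9 CPM in the hESC library, 3.09-fold lower (2.75 to 3.47). The other subunits lay between a log2 ratio of -1.02 (EIF2B1) and -0.75 (EIF2B5). EIF2B4 gave the largest share of the reads, with 57.1 CPM in the NPC and 109 CPM in the hESC library. EIF2B3 took 9.59% of the reads of the complex in the NPC library (8.76 to 10.5) and 14.9% in the hESC library (14.0 to 15.8), so its share was lower in the NPC library, while that of EIF2B4 was 33.2% in the NPC and 32.0% in the hESC library.

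The kinases that phosphorylate eIF2 alpha each answer another stress. EIF2AK4 (GCN2, the sensor of amino acid shortage) had 141 CPM in the NPC and 374 CPM in the hESC library and was 2.65-fold lower (2.55 to 2.76), a call lost with the library total. EIF2AK4 was the only 1 of 4 kinases that passed the rule, against 19.8% of all measured genes called lower. EIF2AK2 (PKR, the sensor of double-stranded RNA) had 73.0 CPM in the NPC and 124 CPM in the hESC library. EIF2AK3 (PERK, the sensor of the endoplasmic reticulum) had 32.1 CPM and 37.7 CPM. EIF2AK1 (HRI, the heme-regulated kinase) had 201 CPM in the NPC and 219 CPM in the hESC library. Per kilobase of the longest coding transcript HRI stood at 44.9 CPM and GCN2 at 25.6 CPM in the NPC library. In the hESC library HRI stood at 49.1 CPM and GCN2 at 67.9 CPM per kilobase, so the order of these kinases differed between the libraries.

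eIF3 is the largest initiation factor. Of its 14 measured genes 9 were lower, against 19.8% of all measured genes, with a median log2 ratio of -1.32 and a summed level of 3960 CPM in the NPC and 10439 CPM in the hESC library. All 14 had a mean of at least 100 CPM, an abundance at which 29.0% of all genes were lower, with a median of -0.55. With the library total 4 remained lower (EIF3B, EIF3C, EIF3CL and EIF3M), against 13.2% of all measured genes. EIF3B, the scaffold subunit, had the lowest ratio of the group, with 117 CPM in the NPC and 608 CPM in the hESC library, 5.20-fold lower (5.0 to 5.42). Its share of the reads of the complex was 2.95% (2.85 to 3.05) in the NPC and 5.83% (5.72 to 5.93) in the hESC library. EIF3A, the largest subunit, had 484 CPM and 1245 CPM and was 2.57-fold lower (2.52 to 2.63), near the middle of the group. EIF3M, EIF3I, EIF3K, EIF3D, which can bind the cap itself, and EIF3G were between 2.37-fold (EIF3G) and 2.88-fold (EIF3M) lower. With the trend of the ratio with transcript length removed, EIF3G, EIF3I and EIF3K were not called and 6 genes of the group were lower.

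The 5 eIF3 genes that missed the rule were EIF3E, EIF3H, EIF3F, EIF3L and EIF3J. EIF3L had 367 CPM in the NPC and 502 CPM in the hESC library, and its share of the complex was 9.26% and 4.81%. EIF3J, a loosely bound subunit, had 89.3 CPM in the NPC and 112 CPM in the hESC library, with a share of 2.25% and 1.07%. Their share of the complex was thus higher in the NPC library, where that of EIF3B was lower. EIF3C gave the most reads, with 1503 CPM in the NPC and 4909 CPM in the hESC library, 3.27-fold lower (3.23 to 3.30). Per kilobase it stood 2.14-fold above the next subunit, EIF3E, in the NPC library and 3.69-fold in the hESC library. EIF3CL, a near-identical copy, was 3.38-fold lower (3.18 to 3.59), and how multi-mapping reads were handled is not stated, so the reads of both genes are uncertain. The summed level and the shares of the complex rest in part on them, as EIF3C took 38.0% of its reads in the NPC and 47.0% in the hESC library. Without EIF3CL 8 of 13 measured genes of the group were lower.

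Of 11 measured genes of the cap-binding complex and its helpers 5 were lower, against 19.8% of all measured genes, and its scaffold genes differed unequally. Of 9 with a mean of at least 100 CPM 4 were lower, against 29.0% of all genes at that abundance. With the library total EIF4A1 and EIF4G1 remained lower, EIF4A3, EIF4E2 and EIF4H lost the call and EIF4G3 was called higher. Among all measured genes 13.2% were then lower and 27.0% higher. EIF4G1, the main scaffold, had 443 CPM in the NPC and 1469 CPM in the hESC library and was 3.31-fold lower (3.24 to 3.39). Its relative EIF4G3 had 484 CPM in the NPC and 286 CPM in the hESC library, a ratio of 1.69 (1.64 to 1.75) that missed the 2-fold rule. EIF4G2 (DAP5, a scaffold that does not bind the cap protein) had 1494 CPM in the NPC and 1298 CPM in the hESC library, a ratio of 1.15 (1.13 to 1.17). Per kilobase EIF4G2 stood highest of these in both libraries, at 373 CPM in the NPC and 324 CPM in the hESC library. EIF4G1 and EIF4G3 were level at 78.2 CPM and 78.1 CPM per kilobase in the NPC library, against 259.1 CPM and 46.1 CPM in the hESC library. EIF4E, the cap-binding protein itself, had 125 CPM in the NPC and 245 CPM in the hESC library, 1.96-fold less, with an interval of 1.87 to 2.05. EIF4E2 (4EHP, a cap-binding repressor) had 91.3 CPM in the NPC and 212 CPM in the hESC library and was 2.32-fold lower (2.21 to 2.44). EIF4E3, another relative that binds the cap, had 27.9 CPM in the NPC and 37.6 CPM in the hESC library.

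The helicase genes need care. The EIF4A1 row had 264 reads in the NPC and 663 in the hESC library, 3.93-fold lower (3.40 to 4.55). A separate row for the read-through transcript SENP3-EIF4A1, which overlaps the gene, held 9263 reads in the NPC and 23849 in the hESC library. Both rows together give 350.2 CPM in the NPC and 1410 CPM in the hESC library, 4.03-fold lower (3.93 to 4.12), so the size of the difference was alike either way while the level was not. EIF4A2, the relative that is prominent in brain, had 393 CPM in the NPC and 559 CPM in the hESC library and missed the rule. EIF4A3, a helicase of the exon junction complex and not of initiation, had 71.2 CPM in the NPC and 170.1 CPM in the hESC library and was 2.39-fold lower (2.25 to 2.53), a call also lost with the length trend removed. Of the helicase's helpers, EIF4H had 231 CPM in the NPC and 525 CPM in the hESC library and was 2.27-fold lower (2.2 to 2.35). EIF4B had 751 CPM in the NPC and 1415 CPM in the hESC library without passing the rule.

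The binding proteins of eIF4E held the member with the farthest difference. EIF4EBP1, which blocks eIF4E until mTORC1 phosphorylates it, had 10.5 CPM in the NPC and 117 CPM in the hESC library. It rested on 286 and 2026 reads and was 11.1-fold lower (9.79 to 12.6). EIF4EBP2, the 4E-binding protein that prevails in brain, had 145 CPM in the NPC and 392 CPM in the hESC library and was 2.69-fold lower (2.59 to 2.80). EIF4ENIF1 (4E-T, which carries eIF4E to the nucleus and to P-bodies) had the opposite sign, with 58.1 CPM in the NPC and 39.6 CPM in the hESC library, a ratio of 1.47 (1.34 to 1.61) under the size rule. EIF6, which keeps the large subunit from joining too early, had 24.4 CPM in the NPC and 73.3 CPM in the hESC library and was 3.0-fold lower (2.73 to 3.30).

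**Figure D3:**
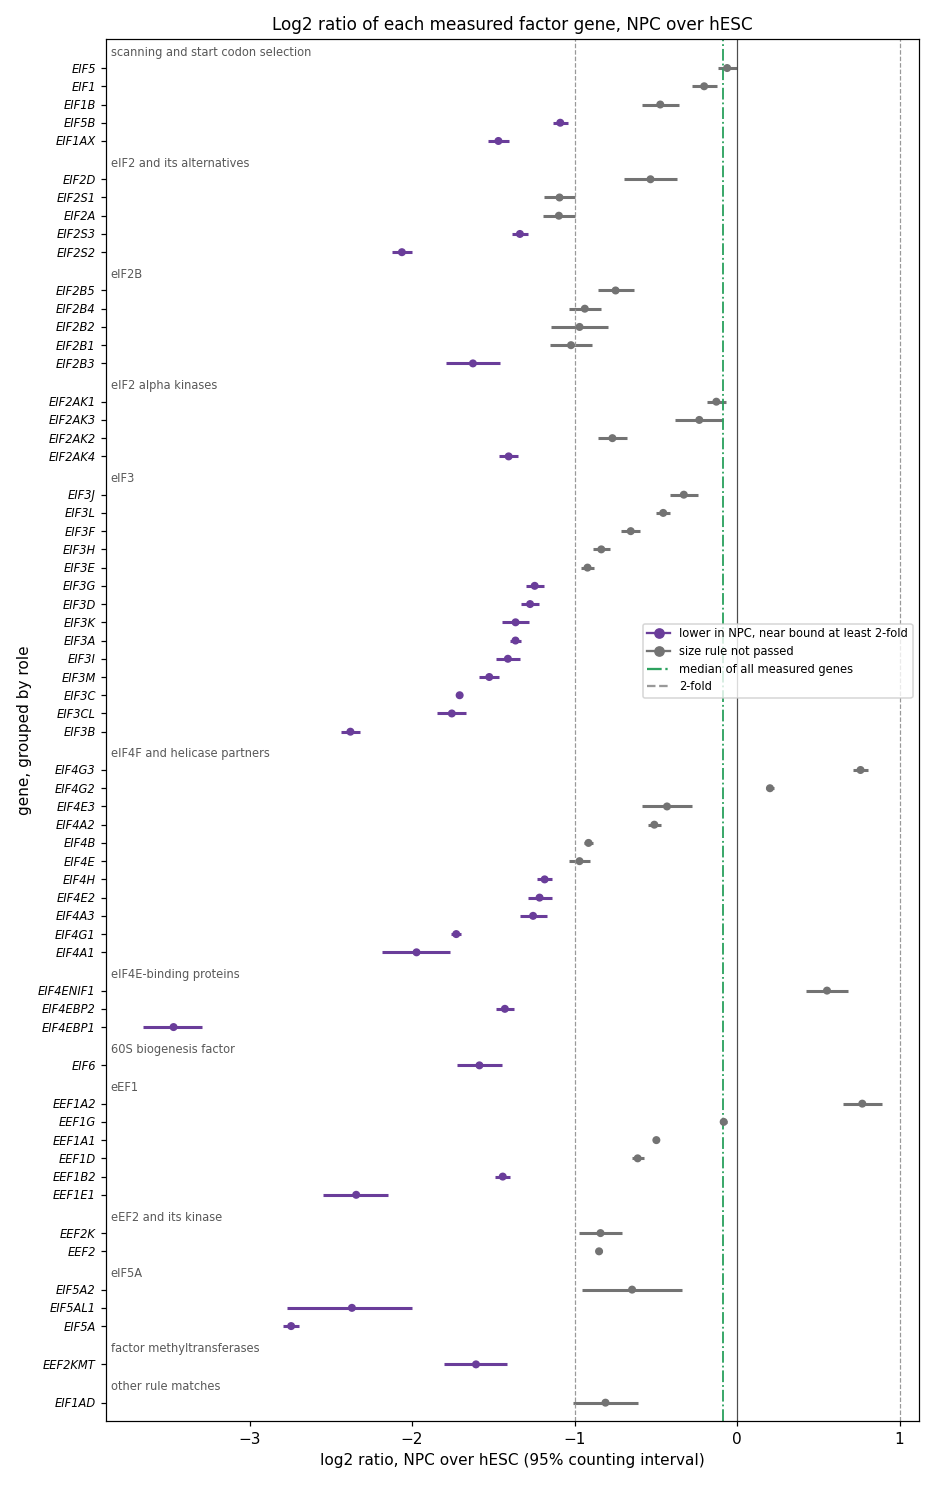
Log2 ratio, NPC over hESC, of the 61 measured members with exact 95% counting intervals, grouped by role. Purple marks the 28 genes called lower. No gene has its near bound past 2-fold on the right, and EIF4EBP1 lies farthest to the left at -3.47.

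Of 6 measured genes named for eEF1, 2 were lower, against 19.8% of all measured genes, with a median log2 ratio of -0.55. EEF1A1, the tRNA-delivering factor and the highest member per kilobase in both libraries, had 6137 CPM in the NPC and 8659 CPM in the hESC library. Its ratio was 1.41-fold lower (1.40 to 1.42), under the rule, and its reads can be shared with its many processed copies. EEF1A2, the isoform of neurons and muscle, had 79.4 CPM in the NPC and 46.5 CPM in the hESC library, a ratio of 1.71 (1.57 to 1.85). Among the subunits of eEF1B, which reloads eEF1A with GTP, EEF1B2 was 2.72-fold lower (2.63 to 2.80), with 228 CPM in the NPC and 619 CPM in the hESC library, a call lost with the length trend removed. EEF1D had 454 CPM in the NPC and 693 CPM in the hESC library, and EEF1G 1749 CPM and 1851 CPM, both under the rule.

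EEF1E1 encodes an accessory protein of the multi-tRNA synthetase complex rather than an elongation factor. It had 9.89 CPM in the NPC and 50.3 CPM in the hESC library and was 5.08-fold lower (4.43 to 5.85). The EEF1E1 row rested on 269 reads in the NPC and 874 in the hESC library. The read-through row EEF1E1-BLOC1S5 had 626 and 473 reads and was 1.18-fold lower (1.05 to 1.33), under the rule. Reads of the 2 rows may be split between them, so the size of the EEF1E1 difference depends on that assignment. EEF2, the translocase, had 2154 CPM in the NPC and 3880 CPM in the hESC library. EEF2K, the kinase that shuts it off, had 32.9 CPM and 58.9 CPM. The log2 ratios of EEF2 (-0.85) and its kinase (-0.84) lay side by side, and neither passed the rule. EEF2KMT, a methyltransferase of EEF2, was 3.05-fold lower (2.66 to 3.49), with 12 CPM in the NPC and 36.5 CPM in the hESC library.

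eIF5A, the hypusine-bearing factor that helps the ribosome past stalling sequences, was among the lowest. EIF5A had 149 CPM in the NPC and 1000 CPM in the hESC library and was 6.70-fold lower (6.48 to 6.94). It was the member with the second largest difference. EIF5A2, its tissue-restricted relative, had 179 reads in each library, which is 6.58 CPM in the NPC and 10.3 CPM in the hESC library. EIF5AL1, an intronless copy, was 5.17-fold lower (4.0 to 6.82), and its 75 NPC reads and 249 hESC reads may in part belong to EIF5A. The enzymes that make hypusine were outside the rule. DHPS, the first of them, had 33.4 CPM in the NPC and 44.4 CPM in the hESC library, and DOHH, which acts next, had 2.94 CPM and 7.94 CPM and was 2.69-fold lower (2.04 to 3.6).

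Shares of reads within pairs of related genes need no scaling between the libraries, although they are not corrected for length. The ratio between the libraries itself varied with transcript length, as given below, and the part of length in these shares was not tested. Lengths were 7257 bases for EIF4EBP2 and 1020 for EIF4EBP1, and 5593 for EIF5A2 and 1511 for EIF5A. They were nearer for EIF4G3 (6196) and EIF4G1 (5667), and EEF1A2 (2014) was shorter than EEF1A1 (4441). In the eIF4G pair, EIF4G3 held 52.2% of the reads in the NPC library (51.6 to 52.8) and 16.3% in the hESC library (15.9 to 16.7). The odds of a read coming from EIF4G3 and not from EIF4G1 were 5.61 times higher in the NPC library (exact 95% interval 5.40 to 5.84). EIF4G2 held 77.1% against EIF4G1 in the NPC and 46.9% in the hESC library. EIF4A2 held 97.6% against the EIF4A1 row in the NPC library and 93.6% in the hESC library. With the read-through row counted as EIF4A1 these shares became 52.9% and 28.4%. The odds ratio was 2.76 (2.38 to 3.21) without that row and 2.83 (2.73 to 2.93) with it.

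In further pairs, too, the relative's share was higher in the NPC library. EIF4EBP2 held 93.3% against EIF4EBP1 in the NPC and 77.1% in the hESC library, an odds ratio of 4.12 (3.61 to 4.70). EIF5A2 held 4.22% against EIF5A in the NPC and 1.02% in the hESC library, 4.28 (3.45 to 5.31). EEF1A2 held 1.28% against EEF1A1 in the NPC and 0.535% in the hESC library, 2.41 (2.22 to 2.61). In each of these pairs the gene with most reads in the hESC library lost share, except for EIF4EBP2, which had the most reads of its pair in both. EIF4E3 held 18.2% against EIF4E in the NPC library and 13.3% in the hESC library, 1.45 (1.29 to 1.63). Smaller shifts the other way were found for EIF4E2 against EIF4E (42.1% in the NPC and 46.4% in the hESC library) and for EIF1B against EIF1 (29.7% and 33.7%). The copy EIF3CL held 3.63% against EIF3C in the NPC and 3.75% in the hESC library, an odds ratio of 0.967 (0.909 to 1.03) whose interval takes in no change.

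**Figure D4:**
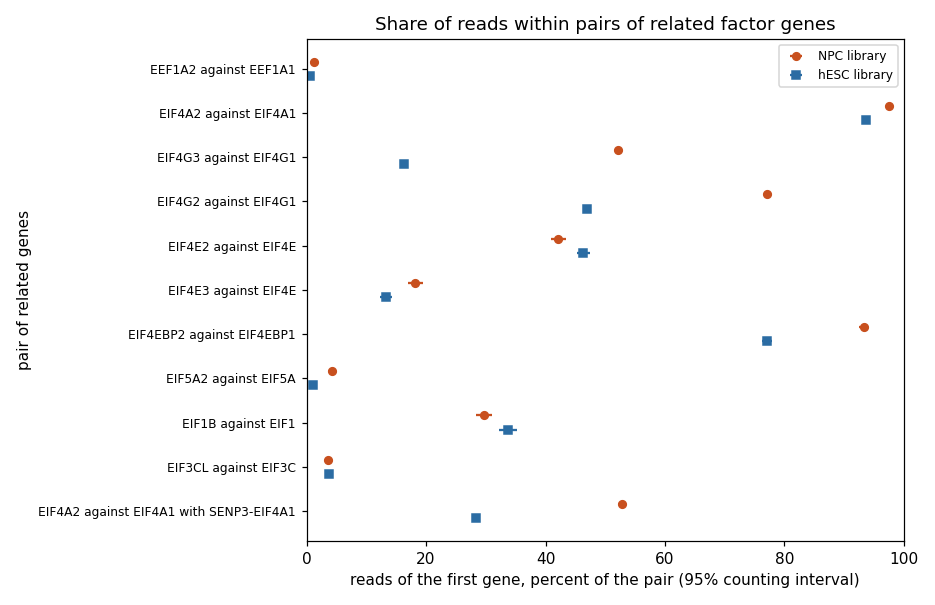
Reads of the first-named gene as a percent of the pair, with exact 95% counting intervals, in the NPC library (circle) and the hESC library (square), for 10 pairs and for EIF4A2 with the read-through row added to EIF4A1. EIF4G3 moves farthest, with 52.2% in the NPC and 16.3% in the hESC library.

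Genes that work with these factors were read against the same background of 19.8% lower and 19.6% higher. With the library total this background was 13.2% lower and 27.0% higher, and with the length trend removed 20.2% and 18.3%. Of 17 measured initiation partners 7 were lower and 2 higher, with a median log2 ratio of -0.59, and 4 were lower with the library total. The ribosome recycling ATPase gene ABCE1 was 5.43-fold lower (5.07 to 5.82), and PABPC4, a poly(A)-binding protein gene, 3.68-fold lower (3.54 to 3.84). PDCD4, an inhibitor of the eIF4A helicase, was 7.57-fold higher (6.81 to 8.46), with 159 CPM in the NPC and 20.9 CPM in the hESC library. CTIF, a scaffold of cap-binding-complex translation, was 3.57-fold higher (3.14 to 4.08). Of 14 elongation and termination partners 6 were lower and 0 higher, with a median of -0.95, and 4 were lower with the library total. The lower genes included ETF1, the release factor eRF1, at 5.13-fold lower (4.88 to 5.40) and DPH2, an enzyme of the diphthamide that eEF2 carries, at 6.72-fold lower (5.61 to 8.13). DOHH and DPH6 of this list reached 5 CPM in the hESC library alone and so could not have been called higher.

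The mTORC1 list, the pathway that acts on 4E-binding proteins, held genes called each way, with neither share above that of all measured genes. Of 26 measured genes 5 were lower and 2 higher, against 19.8% and 19.6% of all measured genes. The median log2 ratio of the list was -0.35. With the library total 1 was lower and 4 higher, against 13.2% and 27.0%, with a median of 0.01. With the length trend removed 2 were lower and 2 higher, against 20.2% and 18.3%, with a median of -0.11. MTOR was 2.59-fold lower (2.47 to 2.72) and RPS6KA1, a kinase downstream of ERK, 4.20-fold lower (3.76 to 4.71). RRAGB, a Rag GTPase gene, was 10.8-fold higher (8.17 to 14.8) on 851 NPC reads and 50 hESC reads, and SESN3, which restrains the pathway, 3.04-fold higher (2.86 to 3.24). RRAGB reached 5 CPM in the NPC library alone and so could not have been called lower. In the list of the integrated stress response, which eIF2 phosphorylation sets off, 12 of 22 measured genes were lower and 1 higher. The shares of all measured genes were 19.8% and 19.6%, and the median of the list was -1.26. With the library total 9 were lower and 2 higher, against 13.2% and 27.0%, with a median of -0.90. The amino acid transporter gene SLC7A5 was 19.7-fold lower (17.6 to 22.3) and STC2, a secreted glycoprotein gene, 17.6-fold lower (14.0 to 22.7). STC2, CHAC1 and CEBPB of this list reached 5 CPM in the hESC library alone and so could not have been called higher. PPP1R15A (GADD34), which brings a phosphatase to eIF2 alpha, was 4.29-fold higher (3.73 to 4.97). These 2 lists share 2 genes.

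Of the 7 lists, aminoacyl-tRNA synthetases had the highest share of lower genes. Of 22 measured cytosolic genes 18 were lower and 0 higher, with a median log2 ratio of -1.73, and 15 were lower with the library total. IARS, for isoleucine, was 5.69-fold lower (5.43 to 5.96) and VARS, for valine, 5.60-fold lower (5.30 to 5.91). Among 11 mitochondrial translation factor genes 4 were lower and 0 higher, with a median of -0.92, but 1 was lower with the library total. TUFM, the mitochondrial counterpart of eEF1A, was 2.96-fold lower (2.85 to 3.07), and MRRF, a recycling factor, 2.85-fold lower (2.51 to 3.24). Of the 82 ribosomal protein genes 28 were lower and 0 higher. Of 80 with a mean of at least 100 CPM 27 were lower, against 29.0% of all genes at that abundance. With the library total 5 of the 82 were lower, against 13.2% of all measured genes. With the length trend removed 11 were lower, against 20.2%, with a median of -0.59. Both are smaller shares than among all measured genes. RPS26 was 4.40-fold lower (4.21 to 4.60) and RPL36AL 3.94-fold lower (3.70 to 4.19), and reads of ribosomal protein genes can be shared with their pseudogenes.

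**Figure D5:**
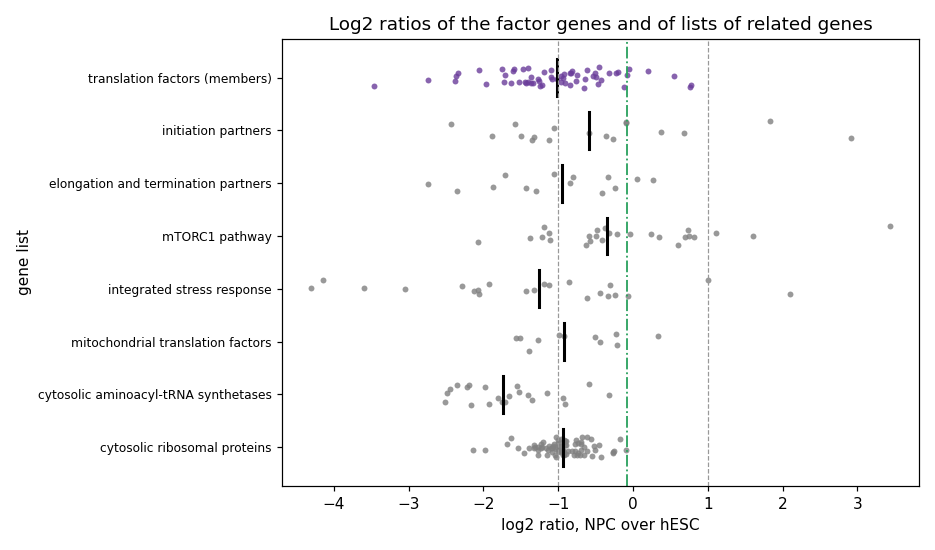
Log2 ratio, NPC over hESC, of each measured gene (points, spread vertically for sight) of the translation factors and of 7 lists of related genes, with the median of each list as a black bar. The dash-dotted line is the median of all measured genes at -0.09, and the synthetases lie lowest with a median of -1.73.

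The ratio between the libraries varied with transcript length, which is given beside the members for that reason. Spearman's rho between length and log2 ratio was 0.21 across 12831 measured genes and 0.26 across the 61 members, as a description with no test, since genes of a library share its depth and its RNA. The median length of the longest coding transcript was 3055 bases for the members and 3515 bases for all measured genes. The 5931 measured genes with a length between the quartiles of the members had a median log2 ratio of -0.13. With the trend removed, 28 members were lower and 0 higher, against 20.2% and 18.3% of all measured genes. The members then had a median of -1.03, but those called were not all the same genes. Of the 28 lower without this step 23 were shared. EEF1B2, EIF3G, EIF3I, EIF3K and EIF4A3 lost the call, and EEF2K, EIF2AK2, EIF2S1, EIF4B and EIF4E gained it.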

How the data were processed

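The authors deposited raw counts, whole numbers of reads for each gene symbol, in 1 table per library. TopHat, edgeR and hg19 are named, without a role, per the submitters' processing notes. Not given in the sources used here are the counting tool, its strand setting, its handling of multi-mapping reads and its annotation. Each library was made from 1.3 µg of total RNA with a SMARTER mRNA-Seq kit, per the labels' protocols.

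Each file held 25737 rows. Of several rows with a symbol (286 symbols) the row with most reads was kept. TMM factors (edgeR 4.0.16, R 4.3.3) were 1.13 for the NPC and 0.884 for the hESC library. Log2 ratios are NPC over hESC with 0.5 reads added. Intervals are exact 95% Clopper-Pearson intervals on the NPC share of a gene's reads, or exact conditional ones for odds ratios. They cover counting error only and no variation between cultures or library preparations, since each group had 1 library. No molecular identifiers were given and PCR copies may count as reads, so even counting error may be understated. A count of 0 (floor of 3 reads) allows up to 0.11 CPM in the NPC and 0.173 CPM in the hESC library. Measured genes had at least 5 CPM in either library, and a call needed a near bound of at least 2-fold. The code was first tested on counts made with known answers.

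Named were all called members, the most abundant of each role, both genes of each pair and, in each list, up to 2 called genes each way. Other members, marker sums, DHPS and DOHH were given after their values were seen. Members and lists were chosen with earlier results of these data known. Lengths came from GENCODE 29, where 94.8% of measured genes had a length, and promoter sequences from RefSeq, on GRCh38.p14 and not on hg19. Alternatives were other scalings (DESeq2 1.42.0 among them), filters, bounds and row sums. Python 3.11.15, numpy 2.4.6, pandas 2.3.3, scipy 1.17.1 and statsmodels 0.14.6 were used.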

Additional observations from a re-analysis of the deposited data

How the results depend on the processing

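The members' median log2 ratio stayed below that of all measured genes under the settings run, with a difference from -1.16 (no filter) to -0.65 (genes with a mean of at least 100 CPM). With the library total, which moved that difference to -0.97, 17 members were lower, 2 higher and the median was -0.67. Of all measured genes 13.2% were then lower and 27.0% higher. All 17 members were also lower with TMM. Those lower with TMM only were EIF2AK4, EIF2S3, EIF3A, EIF3D, EIF3G, EIF3I, EIF3K, EIF4A3, EIF4E2, EIF4H and EIF5B, and 6 uncalled members changed sign (EEF1G, EIF1, EIF2AK1, EIF2AK3, EIF3J and EIF5). A near bound of 1.5-fold gave 43 lower and 2 higher members, against 30.6% and 27.7% of all measured genes. A near bound of 4-fold gave 5 lower members (8.2%), near the 7.26% of all measured genes. The other scalings, filters, row sums and point ratios gave 21 to 31 lower and 0 higher, the least with genes of at least 100 CPM, where 38 members remained. The share of all genes called lower in these settings ran from 15.3% (no filter) to 29.0% (genes of at least 100 CPM). Removal of the length trend kept 23 of the 28 lower members, lost 5 and gained 5. The 100 CPM setting, the removal of the length trend and the read-through row were chosen after seeing the data. No paired analysis was possible because each group had 1 library. Depth limits EIF5A2, EIF5AL1 and the members below 5 CPM.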

Other observations

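Methyltransferases that modify eEF1A stand in the files under older symbols, matched here through RefSeq synonyms, and so lie outside the naming rule. METTL10 (now EEF1AKMT2) had 23.1 CPM in the NPC and 18.5 CPM in the hESC library, a ratio of 1.25 (95% counting interval 1.09 to 1.43). N6AMT2 (now EEF1AKMT1) had 128 reads in the NPC and 32 in the hESC library, a ratio of 2.53 (1.72 to 3.89), and METTL21B (now EEF1AKMT3) had 110 and 38 reads, a ratio of 1.83 (1.27 to 2.75). The last pair were below 5 CPM in both libraries. All 3 ratios lay above 1, while EEF2KMT, the methyltransferase gene that the rule took, was 3.05-fold lower.

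Rows that overlap a member by name held reads of their own. ANKHD1-EIF4EBP3 had 7810 reads in the NPC and 3347 in the hESC library, against 33 and 16 for EIF4EBP3. The antisense row EIF1AX-AS1 was 4.78-fold lower (4.13 to 5.57) in the NPC library, and EIF3J-AS1 had 302 reads in the NPC and 118 in the hESC library.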
